A study of Drosophila melanogaster with 15 samples.

Results

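Ecdysone, the steroid hormone that times moulting and metamorphosis in Drosophila, is made from dietary sterols in the prothoracic gland, the largest part of the ring gland, which sits on the larval brain. The oxygenase nvd opens the pathway, a series of little understood steps that includes the dehydrogenase sro follows, and the cytochromes P450 phm, dib and sad then hydroxylate the sterol to ecdysone. The P450 shd carries out the last hydroxylation, to the active hormone 20-hydroxyecdysone, in tissues outside the gland. These 6 genes were followed by name on the arrays, out of 11982 genes that had at least 1 probe set naming no other gene, and the brightest probe set on average stood for each gene. All 6 had such a probe set, 1 each for nvd, sro, phm, dib and sad and 2 for shd. The gene phm is listed in the platform annotation under the symbol phtm, and was matched through its Entrez number and its synonym Cyp306a1. In the RefSeq gene table, nvd, dib and shd lie on chromosome arm 3L, sro and sad on 3R and phm on X.

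RNA was measured on 15 Affymetrix Drosophila Genome 2.0 arrays, 3 for each of 5 strains: DSas-4 mutants and DSas-6 mutants, which the labels describe as lacking centrosomes, a strain with Sak overexpression (SakOE), described as having extra centrosomes, and the wild types w67, whose genotype is given as white, and OregonR. Every sample was brain and imaginal disc tissue pooled from 10 wandering larvae of the 3rd instar kept at 25 °C, and no stain or dissection of the ring gland is mentioned. The labels name neither the alleles of the mutants nor the promoter that drives Sak, nor the age of the larvae in hours. Each altered strain was set against both wild types, so all 3 comparisons share the same 6 wild-type arrays.

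Values are the authors' log2 expression levels, and differences are log2 differences with their SE from limma, fitted to all 15 arrays. A gene was tested if it reached a log2 value of 4 on at least 3 arrays, which 6973 genes did, and it was called in a strain if both wild-type contrasts passed an adjusted p of 0.05 with 1 sign; "fell" is used only of such calls. Errors on levels are SD with n = 3 arrays. The targeted genes bore out the labels DSas-4 (Sas-4 at 4.84 ± 0.23 there, compared with 7.62 ± 0.17 for w67 and 7.68 ± 0.09 for OregonR) and DSas-6 (Sas-6 at 3.21 ± 0.09, compared with 7.73 ± 0.09 for w67 and 7.65 ± 0.05 for OregonR). SAK itself was no higher under the label SakOE. It averaged 7.53 ± 0.04 there, 7.84 ± 0.11 for w67 and 7.51 ± 0.11 for OregonR, and it is unknown here whether the probe set matches the overexpressed transcript. The lowest value took 4 different levels over the arrays, shared only by DSas-4 and w67, as separate normalization runs would leave. The labels name no such runs. If there were any, the run and the strain cannot be told apart in every contrast but DSas-4 against w67. Among markers fixed for the dissected tissue, all 7 measured brain genes and all 7 measured disc genes reached 4 on all arrays, and 1 of them was called in each altered strain. The brain gene elav averaged 11.94 ± 0.21 for w67 and 12.91 ± 0.12 for OregonR. Summed over the brain genes (log2 of the sum of linear values), the level was 13.28 to 13.46 in OregonR and 12.66 to 12.93 in w67. It was 12.73 to 12.9 in DSas-4, 12.94 to 13.09 in DSas-6 and 12.67 to 12.76 in SakOE. The salivary gland secretion genes Sgs1, Sgs3, Sgs4, Sgs5, Sgs7 and Sgs8 reached 4 on no array, but fkh of the salivary gland list did on all 15. Genes of other tissues were detected too. On at least 1 array 4 was reached by 5 of 6 measured fat body genes and 9 of 10 haemocyte and lymph gland genes. So it was by 3 of 7 gut and Malpighian tubule genes, 3 of 4 oenocyte and cuticle genes and 2 of 4 muscle, heart and trachea genes. Of these gut genes LManII reached 4 on all 15 arrays. The others, betaTry (5.11) and Jon65Aiii (5.83), each did so on only 1 array, of OregonR.

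The 5 genes of the gland were all detected in every strain. They reached 4 on all 15 arrays, so none of them entered the test through 1 group alone. The mean over all arrays was 9.78 for phm, 9.56 for sad, 8.26 for nvd, 7.35 for sro and 5.99 for dib. These levels come from different probe sets, so their order is not one of transcript amounts. The enzyme that acts outside the gland, shd, was under 4 on every array with both of its probe sets, between 2.28 and 2.61 with the higher one, and was not tested.

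**Figure D1:**
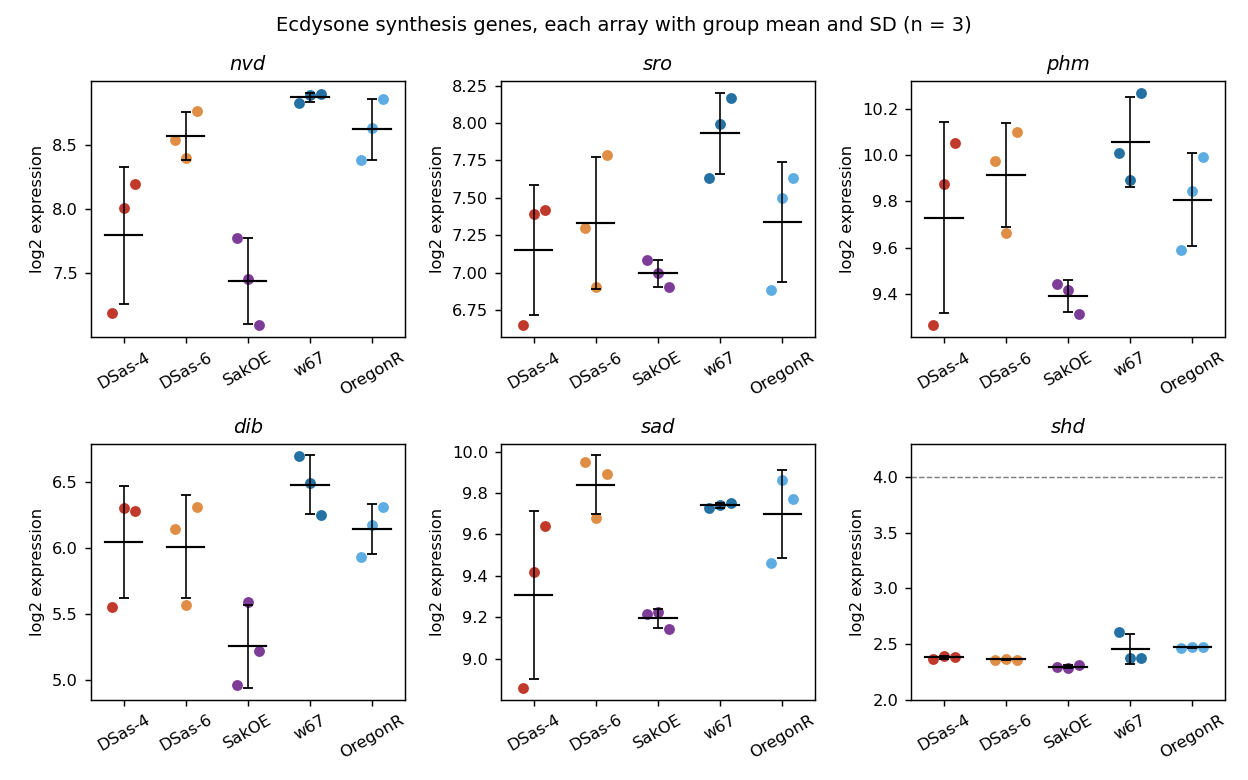
Log2 expression of the 6 genes on each array (points), by strain, with the mean and SD of the 3 arrays (lines and bars); the vertical axes differ between panels and do not start at 0. The dashed line in the shd panel is the filter level of 4, which no shd value reaches, and the SakOE points of nvd, phm, dib and sad lie below all 6 wild-type points.

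nvd, the oxygenase of the first step, was the gene that changed most. It stood at 7.19, 8.01 and 8.19 on the DSas-4 arrays, at 8.54, 8.40 and 8.77 on the DSas-6 arrays and at 7.77, 7.45 and 7.10 on the SakOE arrays, against 8.83, 8.89 and 8.90 in w67 and 8.38, 8.63 and 8.86 in OregonR. All 3 arrays of DSas-4 and all 3 of SakOE were below every wild-type array, while the DSas-6 arrays overlapped those of OregonR.

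In DSas-4 mutants nvd fell 1.77-fold by the smaller of its 2 differences. The nvd difference was -1.08 ± 0.23 (SE) relative to w67 (limma, adjusted p = 0.0155) and -0.83 ± 0.23 relative to OregonR (adjusted p = 0.0199). It was the 1 gene called of the 5 tested, where 3.3% of all tested genes were called, 1.53% fell and 3.71% lay below all 6 wild-type arrays. The call was lost under 7 of 24 alternatives. It missed the threshold with no filter on dim probe sets (smaller difference -0.83, adjusted p = 0.0665) and in fits of only the 2 groups compared (-0.83, adjusted p = 0.113). Without DSas-4 replicate 1 the smaller nvd difference was -0.52 and missed the threshold (adjusted p = 0.0513), and it also missed it without w67 replicate 2 (-0.83), w67 replicate 3 (-0.83), OregonR replicate 2 (-0.82) or OregonR replicate 3 (-0.71).

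In the arrays labelled SakOE nvd fell 2.27-fold by the smaller difference. The nvd difference was -1.43 ± 0.23 relative to w67 (limma, adjusted p = 0.000717) and -1.18 ± 0.23 relative to OregonR (adjusted p = 0.00305). The call held under all 24 alternatives run, with smaller differences between -1.35 and -1.01. In order of mean level the strains ran w67, OregonR, DSas-6, DSas-4 and SakOE. Of the neighbours in that order only DSas-4 and DSas-6 differed past the threshold (-0.77, adjusted p = 0.0261), and not without DSas-4 replicate 1 (-0.47).

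sro, the short-chain dehydrogenase, varied widely between replicates and was called in no strain. It stood at 6.65, 7.39 and 7.42 in DSas-4, at 7.30, 6.91 and 7.79 in DSas-6 and at 7.09, 6.995 and 6.90 in SakOE, against 7.63, 7.996 and 8.17 in w67 and 6.88, 7.50 and 7.63 in OregonR. Only the DSas-4 and SakOE arrays were all below those of w67, and each altered strain overlapped OregonR. Against w67 the sro difference passed in SakOE (-0.94 ± 0.26, limma, adjusted p = 0.0160), and against OregonR it did not (-0.34 ± 0.26, adjusted p = 0.396). The wild types themselves were 0.59 apart (w67 minus OregonR, adjusted p = 0.132), the largest gap between them among the 5 genes.

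phm, the P450 that starts the hydroxylations, had its lowest mean in SakOE, although DSas-4 replicate 1 was its lowest single array. It stood at 9.26, 9.87 and 10.05 in DSas-4, at 9.98, 9.66 and 10.10 in DSas-6 and at 9.44, 9.42 and 9.31 in SakOE, against 10.01, 9.89 and 10.27 in w67 and 9.59, 9.84 and 9.99 in OregonR. The 3 SakOE arrays lay below all 6 wild-type arrays and close to each other, while DSas-4 and DSas-6 overlapped both wild types. The phm difference in SakOE was -0.67 ± 0.18 relative to w67 (limma, adjusted p = 0.0150) and -0.42 ± 0.18 relative to OregonR (adjusted p = 0.136), so that it was not called. It was called in fits of only the 2 groups compared (smaller difference -0.42), with array weights (-0.43) and without DSas-4 replicate 1 (-0.42), and in none of the other 21 alternatives.

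dib, the P450 of the next hydroxylation, had the lowest level of the 5 and fell in the arrays labelled SakOE. It stood at 5.55, 6.30 and 6.28 in DSas-4, at 6.15, 5.57 and 6.32 in DSas-6 and at 4.96, 5.59 and 5.21 in SakOE, against 6.70, 6.49 and 6.25 in w67 and 5.94, 6.18 and 6.31 in OregonR. All SakOE arrays lay below all wild-type arrays, and 1 array each of DSas-4 and DSas-6 was as low as the highest of SakOE. The dib difference in SakOE was -1.23 ± 0.23 relative to w67 (limma, adjusted p = 0.00222) and -0.89 ± 0.23 relative to OregonR (adjusted p = 0.0189), a smaller change of 1.85-fold. It missed the threshold without SakOE replicate 1 (-0.74), SakOE replicate 3 (-0.87), OregonR replicate 2 (-0.87) or OregonR replicate 3 (-0.80). Below the other strains SakOE also stood apart from its neighbour in the order of means, DSas-6 (-0.76, adjusted p = 0.0429), a difference lost under 10 of 24 alternatives. These were median centring (-0.71), the fit of those 2 groups (-0.76), the replicate number as a block (-0.76), and leaving out DSas-6 replicate 1 (-0.69) or 3 (-0.60), SakOE replicate 1 (-0.61) or 3 (-0.74), w67 replicate 2 (-0.76), or OregonR replicate 2 or 3 (-0.76).

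sad, the P450 of the last step in the gland, was the least variable of the 5 in w67 and SakOE. It stood at 8.86, 9.42 and 9.64 in DSas-4, at 9.95, 9.68 and 9.89 in DSas-6 and at 9.22, 9.23 and 9.14 in SakOE, against 9.73, 9.74 and 9.75 in w67 and 9.46, 9.86 and 9.77 in OregonR. The SakOE arrays lay below all wild-type arrays. The DSas-4 arrays were below those of w67 but overlapped OregonR, and the DSas-6 arrays overlapped both. In SakOE sad fell by a smaller change of 1.42-fold, with differences of -0.54 ± 0.16 relative to w67 (limma, adjusted p = 0.0201) and -0.50 ± 0.16 relative to OregonR (adjusted p = 0.0424). This was the least secure of the calls, lost under 13 of 24 alternatives: it was absent after median centring (-0.42), after quantile normalization (-0.43), with no filter on dim probe sets (-0.50), and without any 1 array of SakOE (-0.52 to -0.48), any 1 of w67 (-0.50), OregonR replicate 2 (-0.42) or 3 (-0.47), or DSas-6 replicate 1 or 3 (-0.50). In DSas-4 the sad differences of -0.43 and -0.39 did not pass (adjusted p = 0.161 and 0.0869). Without DSas-4 replicate 3 they did, with a smaller difference of -0.56.

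Over the 5 tested genes, 3 fell and none rose in the arrays labelled SakOE, where 10.7% of all tested genes were called, 7.24% fell and 3.46% rose. These shares depend on the scaling of the arrays. Of the 6973 tested genes 505 fell and 241 rose in the main fit. After median centring 283 fell and 363 rose, and after quantile normalization 264 fell and 340 rose. The call of sad was lost under both rescalings. Set against a single wild type, 5 of 5 passed in SakOE minus w67 (32.7% of all tested genes) and 3 of 5 in SakOE minus OregonR (18.2%). In DSas-4 it was 1 of 5 for either wild type (4.6% of all tested genes for w67, 24.9% for OregonR), and in DSas-6 0 of 5 for either (21.4% for w67, 13.9% for OregonR). In SakOE 4 of the 5 lay below all 6 wild-type arrays, as did 17.8% of all tested genes. The median SakOE difference of the 5 genes was -0.94 against w67 and -0.50 against OregonR, and that of all tested genes -0.12 and -0.02. In DSas-4 mutants 1 of 5 fell and none rose, and the medians were -0.44 against w67 and -0.19 against OregonR, beside -0.01 and 0.08 for all tested genes. In DSas-6 mutants 0 of 5 were called with limma, where 6.15% of all tested genes were called and 4.02% fell; 12.0% lay below all 6 wild-type arrays and none of the 5 did. At an unadjusted p under 0.05 against both wild types the DSas-6 count was also 0. The DSas-6 medians were -0.30 and -0.01, beside -0.08 and 0.01.

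**Figure D2:**
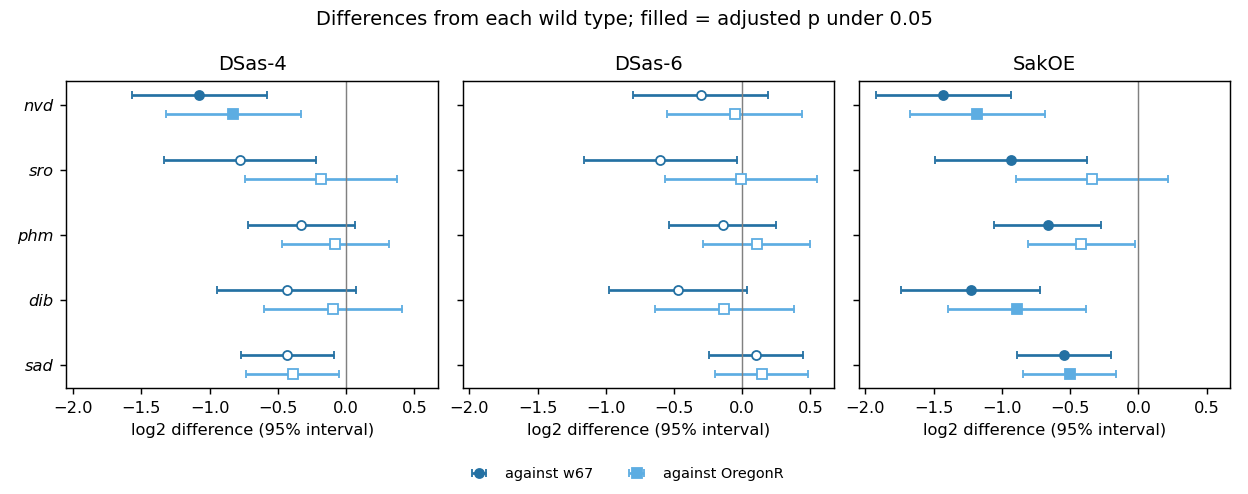
Log2 differences of the 5 tested genes in DSas-4, DSas-6 and SakOE (panels) from w67 (circles) and OregonR (squares), with 95% intervals from limma; filled symbols passed an adjusted p of 0.05. In SakOE all 5 genes passed against w67 and nvd, dib and sad also against OregonR; in DSas-6 none passed against either.

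The 95% intervals show how precisely the DSas-6 differences were measured. Against w67 the interval ran from -0.80 to 0.19 for nvd, from -1.16 to -0.04 for sro, from -0.54 to 0.25 for phm, from -0.98 to 0.04 for dib and from -0.24 to 0.44 for sad. Only that of sro left out 0, and its adjusted p was 0.116 (limma). Against OregonR the 95% interval of the DSas-6 difference ran from -0.55 to 0.44 for nvd, from -0.56 to 0.55 for sro, from -0.29 to 0.50 for phm, from -0.64 to 0.38 for dib and from -0.20 to 0.48 for sad. Between the altered strains, SakOE was lower than DSas-6 in nvd (-1.13, limma, adjusted p = 0.00451), dib (-0.76) and sad (-0.65, adjusted p = 0.0135), 3 of 5 genes where 16.6% of all tested genes differed. The sad difference was lost without DSas-6 replicate 1 (-0.59). DSas-4 was lower than DSas-6 in nvd and sad (-0.53, adjusted p = 0.0259), 2 of 5 beside 25.0% of all tested genes. The DSas-4 differences from DSas-6 were lost without DSas-4 replicate 1 (sad -0.31, nvd -0.47), without DSas-6 replicate 1 or 3, and in the fit of those 2 groups. Between SakOE and DSas-4 only dib differed (-0.79, adjusted p = 0.0211), beside 34.2% of all tested genes. That dib difference was lost after median centring (-0.68), after quantile normalization (-0.615), in the fit of those 2 groups (-0.79), and without DSas-4 replicate 2 (-0.66) or 3 (-0.67) or SakOE replicate 1 (-0.645) or 3 (-0.77). Without DSas-4 replicate 1, 4 of the 5 genes differed. No gene of the 5 differed between w67 and OregonR with limma, where 15.7% of all tested genes did; at an unadjusted p under 0.05 sro did.

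In every strain but w67 some replicates differed from their strain in all 5 genes in 1 direction. On DSas-4 replicate 1 nvd lay 0.61, sro 0.51, phm 0.47, dib 0.49 and sad 0.45 below its mean in the strain. All 5 were likewise below the mean of their strain on DSas-6 replicate 2, SakOE replicate 3 and OregonR replicate 1, and all 5 above it on DSas-4 replicates 2 and 3, DSas-6 replicate 3 and OregonR replicates 2 and 3. On the w67 arrays the mean deviation of the 5 genes stayed between -0.04 and 0.05, with genes going opposite ways: sro was at -0.30, 0.07 and 0.23 from its mean and dib at 0.22, 0.01 and -0.23. On SakOE replicate 1 nvd was 0.33 above its mean and dib 0.29 below.

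**Figure D3:**
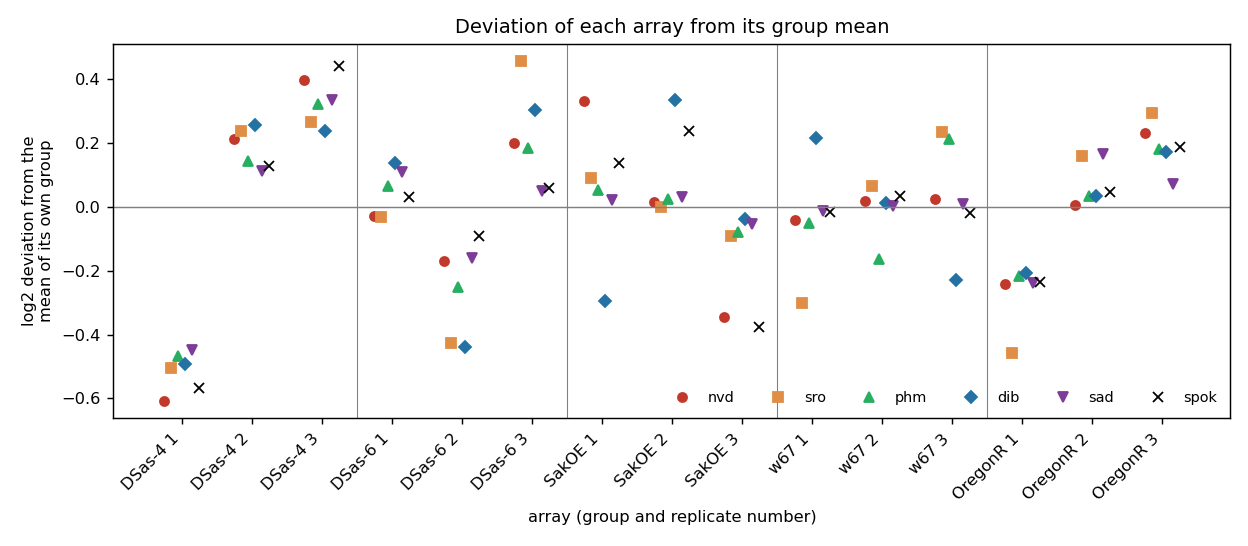
Deviation of nvd, sro, phm, dib, sad and spok from the mean of their own strain (log2, vertical axis) on each of the 15 arrays (horizontal axis). All 6 symbols lie well below 0 on DSas-4 replicate 1 and above 0 on DSas-4 replicates 2 and 3.

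Across the 15 arrays these within-strain deviations correlated positively in all 10 pairs of genes, with Pearson's r between 0.57 and 0.89 and Spearman's rho between 0.45 and 0.89. In 7 of the 10 pairs the correlation passed a two-sided exact permutation test within strains after adjustment over the 10 pairs. The closest pairs were phm with sad (r = 0.89, rho = 0.79, exact permutation p = 0.0109 and 0.00887, adjusted p = 0.0219 and 0.0222) and phm with sro (r = 0.88, rho = 0.89, exact permutation p = 0.00283 and 0.0009, adjusted p = 0.00943 and 0.0030). nvd with sro had the smallest p that the 7776 permutations can give (r = 0.80, rho = 0.88, exact permutation p = 0.000129 for both, adjusted p = 0.00129). The 3 pairs that did not pass were those of dib with nvd (r = 0.57), sro (r = 0.62) and phm (r = 0.67). For each pair r was also taken without the 2 arrays farthest from the median level of 1 of its genes over all strains. That gene was the earlier in the order nvd, sro, phm, dib and sad. Without those arrays r lay between 0.26, for nvd with dib, and 0.83, for sro with phm. The choice went by level and not by within-strain deviation, so these need not be the arrays that weigh most on r. The count of pairs that passed depends on single arrays: it was 2 without DSas-4 replicate 1, 3 without DSas-4 replicate 2 or 3, DSas-6 replicate 2 or OregonR replicate 1, and 6 to 10 without any other array.

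spok, another cytochrome P450 of the early steps in the same gland, had a different pattern between strains. It stood at 10.77, 11.46 and 11.78 in DSas-4, at 11.14, 11.02 and 11.17 in DSas-6 and at 11.04, 11.14 and 10.53 in SakOE, against 11.07, 11.12 and 11.07 in w67 and 11.09, 11.37 and 11.51 in OregonR. The strains overlapped, and no difference passed in either direction: spok was 0.25 (DSas-4), 0.02 (DSas-6) and -0.18 (SakOE) from w67 and 0.01, -0.21 and -0.42 from OregonR (limma, adjusted p of at least 0.204).

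Within strains spok moved with the 5 genes, as on DSas-4 replicate 1, where it was 0.57 below the mean of its strain. Taking each gene relative to spok on the same array, with the wild-type mean set to 0, gave nvd in DSas-4 an SD of 0.08, against 0.54 for nvd itself. In SakOE it widened the spread, to an SD of 0.28 for sad (0.05 for sad itself), 0.27 for phm (0.07) and 0.27 for sro (0.09). Relative to spok, nvd lay between -1.13 and -0.99 in DSas-4 and between -1.23 and -0.82 in SakOE, against 0.22 to 0.28 in w67 and -0.28 to -0.20 in OregonR. DSas-4 and SakOE were thus below all wild-type arrays on this scale too. In DSas-6 nvd relative to spok lay between -0.17 and 0.06, within the range of the wild types. sad relative to spok lay between -0.65 and -0.42 in DSas-4, against 0.11 to 0.17 in w67 and -0.25 to -0.02 in OregonR, with no overlap. In SakOE sad overlapped OregonR but not w67, from -0.43 to 0.10. phm in SakOE overlapped both wild types, from -0.46 to 0.05 against 0.04 to 0.47 in w67 and -0.26 to -0.23 in OregonR. Both genes lay below all wild-type arrays in their own levels in SakOE. dib relative to spok was -0.76 ± 0.40 in SakOE, below all wild-type arrays, which lay between -0.30 and 0.52. This scale was chosen after the values were seen, so it is a description with no test. It shows unequal change of 2 genes and does not say which of them changed.

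**Figure D4:**
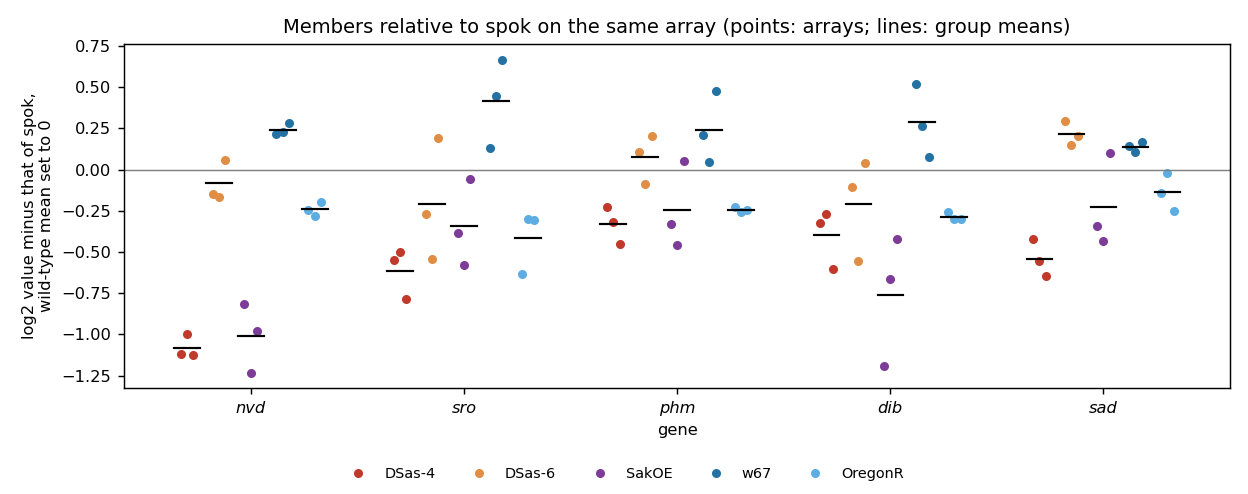
Log2 level of the 5 genes minus that of spok on the same array, with the mean of the 6 wild-type arrays set to 0 (vertical axis); points are arrays, lines the means of 3. nvd in DSas-4 and SakOE lies near -1, below all wild-type points, and sad in DSas-4 between -0.65 and -0.42.

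How much ring gland each sample held was not recorded, and in such mixed tissue fewer gland cells and less RNA per cell cannot be told apart. Genes of the other 2 parts of the ring gland give values that bear on it: jhamt, the juvenile hormone methyltransferase of the corpus allatum, and Akh, the adipokinetic hormone of the corpora cardiaca. jhamt averaged 6.87 ± 0.55 in DSas-4, 6.60 ± 0.15 in DSas-6 and 6.84 ± 0.41 in SakOE, compared with 6.99 ± 0.17 for w67 and 6.82 ± 0.02 for OregonR. Akh averaged 8.91 ± 0.49, 8.79 ± 0.24 and 8.80 ± 0.26 in those altered strains, compared with 9.30 ± 0.29 for w67 and 9.06 ± 0.11 for OregonR. Neither passed in any of these contrasts (limma, adjusted p of at least 0.101), and of all 4 listed genes of these parts, with Cyp6g2 and Lst, none was called against both wild types. Their summed level (log2 of the sum of linear values) was 8.83 to 9.75 in DSas-4, 8.99 to 9.38 in DSas-6 and 8.94 to 9.47 in SakOE, against 9.43 to 9.84 in w67 and 9.33 to 9.52 in OregonR, and its part in the results for the 5 genes was not tested. On DSas-4 replicate 1 jhamt and Akh were 0.57 and 0.53 below the mean of their strain, as the 5 genes and spok were. On SakOE replicate 3, DSas-6 replicate 2 and OregonR replicate 1, also with all 5 genes below, jhamt deviated by -0.47, -0.02 and -0.02. Akh deviated there by -0.25, -0.24 and -0.10. With all 5 genes above, jhamt ran from -0.14 on DSas-6 replicate 3 to 0.53 on DSas-4 replicate 3. In DSas-6 jhamt and Cyp6g2 lay below all 6 wild-type arrays, as did 12.0% of all tested genes.

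Of 9 listed genes for other steroid enzymes and sterol supply, 6 were tested. In DSas-4, where 3.3% of all tested genes were called, 1 of the 6 fell, the ferredoxin gene Fdx1 (smaller difference -0.22, limma, adjusted p = 0.0299). The call of Fdx1 was lost under 9 of 24 alternatives, among them without DSas-4 replicate 1 (-0.14), without DSas-4 replicate 3 (-0.23), without w67 replicate 2 or 3 (-0.22) and without any 1 OregonR array (-0.22 to -0.21). None of the 6 was called in DSas-6 or SakOE. In SakOE Start1, a sterol transfer protein gene of the gland, averaged 9.91 ± 0.12 compared with 10.16 ± 0.08 for w67 and 10.28 ± 0.13 for OregonR, and passed against OregonR only (-0.37, adjusted p = 0.0303). spo, a paralogue of spok, and Cyp6t3 were under 4 on all arrays.

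Of 12 tested regulators of the gland, 2 fell in the arrays labelled SakOE, where 7.24% of all tested genes fell, and none was called in DSas-4 or DSas-6. ftz-f1, a nuclear receptor gene needed for the expression of ecdysone synthesis genes, averaged 6.30 ± 0.37 in SakOE, compared with 7.14 ± 0.29 for w67 and 7.23 ± 0.05 for OregonR. All its SakOE arrays, from 5.91 to 6.65, lay below those of the wild types, from 6.82 to 7.40. The ftz-f1 difference was -0.84 relative to w67 (limma, adjusted p = 0.0115) and -0.94 relative to OregonR (adjusted p = 0.00877), and was lost without SakOE replicate 3 (-0.64) or w67 replicate 3 (-0.70). kni, a nuclear receptor family gene, fell by 0.31 by its smaller difference (adjusted p = 0.0399), a call lost under 12 of 24 alternatives, among them median centring (-0.29), quantile normalization (-0.29), the replicate block, and leaving out any 1 SakOE array (-0.35 to -0.26), OregonR replicate 1 (-0.30) or 2 (-0.27), or replicate 3 of w67, DSas-4 or DSas-6 (-0.31). ouib, a zinc finger factor of the gland that is known for acting on spok, averaged 5.22 ± 0.25 in SakOE, compared with 6.26 ± 0.14 for w67 and 5.39 ± 0.04 for OregonR, and passed against w67 only. Ptth, the brain hormone that stimulates the gland, was called in no strain, and its receptor gene tor was under 4 on all arrays. In which cells of the mixed tissue these genes differed was not measured.

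Of 19 tested genes of the ecdysone response, 1 fell in DSas-4 and 1 rose in DSas-6, and none was called in SakOE. Over all tested genes the shares called were 3.3% in DSas-4, 6.15% in DSas-6 and 10.7% in SakOE, and 1 of 19 is near the first 2. The nuclear receptor gene Eip78C averaged 6.15 ± 0.29 in DSas-4, compared with 7.40 ± 0.19 for w67 and 7.57 ± 0.10 for OregonR, a smaller difference of -1.25 (limma, adjusted p = 0.00133) that held under all 24 alternatives. The receptor gene EcR rose by 0.30 in DSas-6, a call lost under 9 of 24 alternatives: after median centring (0.30) and quantile normalization (0.32), in fits of only the 2 groups compared (0.30), and without any 1 DSas-6 array (0.27 to 0.32), w67 replicate 3 (0.21) or OregonR replicate 2 (0.26) or 3 (0.30). The median difference of the 19 genes in SakOE was 0.04 against w67 and 0.06 against OregonR. Of the genes for inactivation and transport of the hormone, Cyp18a1, Oatp74D (the importer EcI) and Atet, none was called.

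Within strains most ecdysone response genes had a negative correlation with the synthesis genes. Over the 15 arrays, 17 of the 19 response genes had a negative Pearson's r with the mean deviation of the 5 genes, against 38.7% of the other tested genes. The median r was -0.51 for the 19 genes and 0.12 for all other tested genes. The lowest r were those of ImpL1 (-0.79), Hr3 (-0.77), ImpE3 (-0.76), Hr4 (-0.74) and ImpE1 (-0.74), genes known for their induction by the hormone. Without DSas-4 replicate 1 the count was 16 of 19 (34.9% of the other genes) and the median -0.45. There r was -0.91 for ImpL1 and -0.52 for Hr3. Cyp18a1, the P450 that inactivates the hormone, had an r of -0.73, and -0.81 without DSas-4 replicate 1. Some genes of other tissues had values as low. Of 5 tested fat body genes, Fbp2 (-0.65), Lsp2 (-0.64) and Fbp1 (-0.60) were negative, and apolpp (0.50) and ppl (0.56) were positive. The list median was -0.60, and -0.25 without DSas-4 replicate 1, where apolpp (0.58) and ppl (0.53) stayed positive. The gut gene LManII had an r of -0.55, and -0.05 without that array. Of 7 tested disc genes 3 were negative over 15 arrays, nub (-0.51), ap (-0.42) and vg (-0.25). The other 4 were positive, ey (0.565), so (0.563), Dll (0.285) and eya (0.08). Without DSas-4 replicate 1 nub, ap and vg had an r of -0.90, -0.79 and -0.62. Without it eya was also negative (-0.23), and ey (0.40), so (0.37) and Dll (0.24) stayed positive. These correlations share the arrays and the mean of the 5 genes, and are given as a description with no test.

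All 9 tested haemocyte and lymph gland genes also ran against the 5 genes (median r -0.42), but 4 of 9 did so without DSas-4 replicate 1 (median r 0.08). The summed level of the 10 measured genes of that list was 10.7 to 11.47 in DSas-4, 10.1 to 10.2 in DSas-6 and 10.3 to 10.4 in SakOE, against 10.5 to 10.6 in w67 and 10.2 to 10.3 in OregonR, with NimC1 under 4 on all arrays. Of the list Sr-CI rose in DSas-4 (0.67), a call lost under 15 of the 23 alternatives that tested it, among them without DSas-4 replicate 1 (0.48) or 2 (0.74). Sr-CI reached 4 on only 4 of the 15 arrays, among them all those of DSas-4 (4.38 to 4.99). It thus entered the test through the strain in which it rose. It averaged 3.94 ± 0.25 for w67 and 2.84 ± 0.12 for OregonR, under the filter level. The part of the haemocyte and lymph gland genes in the nvd result was not tested.

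Some markers of other tissues also differed in the strains where nvd fell. The oenocyte gene Cyp4g1, a P450 of cuticular hydrocarbon synthesis, averaged 4.19 ± 1.67 in DSas-4, 8.97 ± 0.04 in DSas-6 and 3.75 ± 0.43 in SakOE, compared with 8.42 ± 0.35 for w67 and 7.82 ± 0.78 for OregonR. It fell in DSas-4 (smaller difference -3.63, limma, adjusted p = 0.00154, 23 of 24 alternatives) and in SakOE (-4.08, adjusted p = 0.00055, all 24), and was not called in DSas-6, as with nvd. In SakOE the cuticle protein gene Cpr49Ah (-1.59, with arrays that overlap the wild types) and the heart gene Hand (-1.13) also fell, and Hand fell in DSas-6 (-0.81) in a call held under only 6 of 24 alternatives. The fat body gene apolpp rose in DSas-4 (0.28, 12 of 24), the 1 gene called there of the 5 tested on its list. The median DSas-4 difference of that list was -0.10 against w67 and 0.40 against OregonR, so its genes did not rise together. Among brain and disc genes, the glial gene repo fell in DSas-4 (-0.32, all 24), the neuroblast gene ase in SakOE (-0.32, 16 of 24, overlapping arrays) and the eye gene ey in DSas-6 (-0.34, 23 of 24). The summed level of the 4 oenocyte and cuticle genes was 11.67 to 12.0 in DSas-4, 11.95 to 12.02 in DSas-6 and 11.46 to 11.63 in SakOE, against 11.72 to 11.99 in w67 and 11.5 to 11.74 in OregonR. Of these 4, FASN2 was under 4 on all arrays. Desat1, the brightest of the 4 with strain means from 11.44 to 11.78, was called in no strain. The part of all these markers in the results for nvd, dib and sad was not tested.

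**Figure D5:**
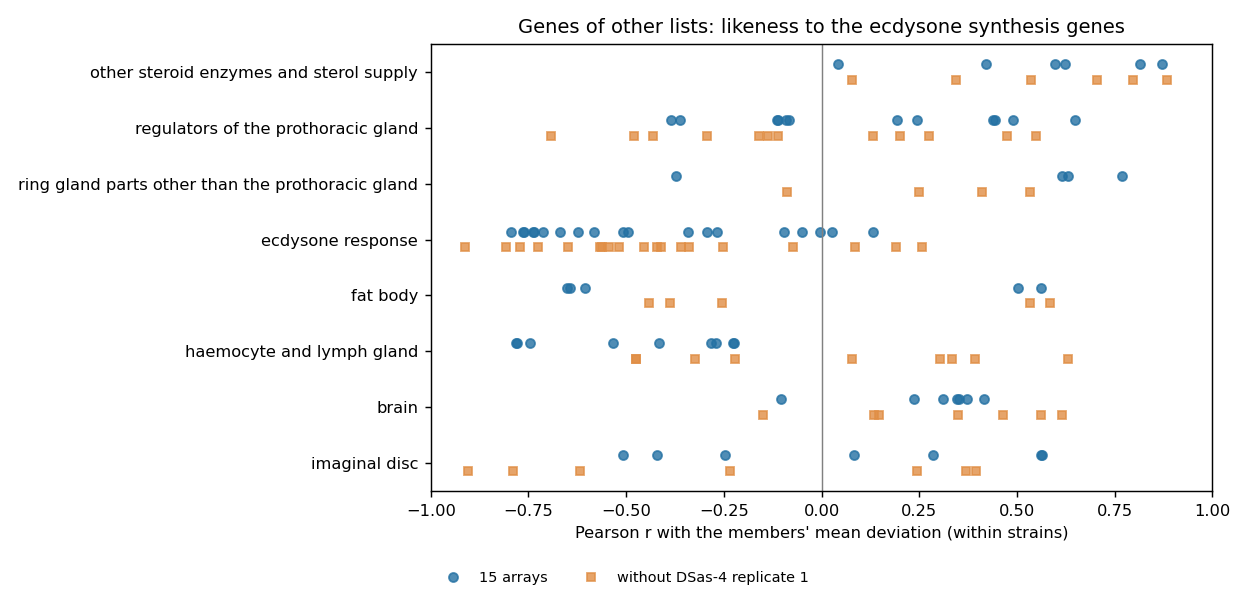
Pearson's r of each listed gene (points) with the mean within-strain deviation of nvd, sro, phm, dib and sad, over 15 arrays (circles) and without DSas-4 replicate 1 (squares). Ecdysone response genes lie mostly below 0 in both, while haemocyte genes lie below 0 only with that array and spread to both sides of 0 without it.

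The genes whose within-strain deviations were most like the mean of the 5, among 6968 other tested genes over 15 arrays, were cu (r = 0.89), CG7607 (0.89), Xxylt (0.88), CG12375 (0.88), EbpIII (0.88), CG9512 (0.87), spok (0.87), CG11474 (0.86), the glutathione transferase gene GstE14 (0.86) and Pask (0.86). Start1 ranked 31st (0.81), Akh 66th (0.77) and jhamt 368th (0.63). These ranks depend on DSas-4 replicate 1. Without it spok ranked 333rd (r = 0.70) in place of 7th, Akh 1122nd (0.53) and jhamt 2976th (0.25), while Start1 ranked 113th (0.80), cu 220th (0.75) and CG11474 13th (0.89).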

How the data were processed

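The authors deposited 1 value per probe set and array for 18952 probe sets. Per the submitters' processing notes GCRMA and limma were used, with no version given. The deposited values, between 2.17 and 15.0, were read as log2 expression because GCRMA writes that scale. Genes were named for the 13647 probe sets with 1 symbol in the platform annotation. limma 3.58.1 in R 4.3.3 (lmFit, eBayes, 1 mean per strain, no covariate) was fitted to 6973 genes on 15 arrays, and p-values were Benjamini-Hochberg adjusted over all genes within each contrast. The fit was tested on simulated data. Precision is limited by the number of arrays. The labels call the samples of a strain biological replicates of pooled larvae, and p-values measure the spread between those pools.

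The 6 genes and the gene lists were chosen with earlier results of these data known. Named were the 6 genes, called members of each list or examples of highest mean, and the 10 genes most like the members. Alternatives were 2 rescalings, 2 filters, the mean of all probe sets, fits of 2 groups, an intensity trend, array weights, a replicate block and leaving out each array. Leave-one-out of the correlations, levels relative to spok and a block within DSas-4 and w67 were added after seeing the data. Deviations of same-numbered arrays correlated over 0.1 in 8 of 30 pairs (-0.32 to 0.31), but in all 3 of DSas-4 with w67 (0.305, 0.183 and 0.121). By the data, not the labels, those numbers were treated as pairs in that added block only. The main fit used no pairing.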

Additional observations from a re-analysis of the deposited data

How the results depend on the processing

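The 35 differences of the 5 tested genes were recomputed under 24 alternatives each, 840 values in all: 777 kept their side of the threshold, 50 lost the call, 13 gained it and 0 called values reversed. Several alternatives could change only the adjusted p of these genes and not the size of a difference. Those were the 2 filters, the mean of all probe sets and leaving out an array of a strain outside the contrast. The count of 1 gene called in DSas-4 was 0 with no filter on dim probe sets and 0 in fits of only the 2 groups compared, and ranged from 0 to 2 when 1 array was left out. The count of 3 in SakOE ranged from 1 to 4 when 1 array was left out, and 2 to 4 otherwise. For SakOE against DSas-4 the count of 1 was 0 after median centring, 0 after quantile normalization and 0 in the fit of only those 2 groups, and 0 to 4 without 1 array. For SakOE against DSas-6 the count of 3 ranged from 1 to 4 without 1 array. For DSas-4 against DSas-6 the count of 2 was 0 in the fit of only those 2 groups and 0 to 2 without 1 array. No gene was called in DSas-6, or between the wild types, under any of the 24. The count of 7 correlated pairs was 2 to 10 without 1 array, and 2 without DSas-4 replicate 1 and OregonR replicate 1. It was 7 after both rescalings. The mean of all probe sets could not change it, because each of the 5 genes had 1 probe set. The cause of these changes was not tested, except that fewer arrays enter a fit of 2 groups or one that leaves an array out. Outside DSas-4 and w67, no 2 strains had all 3 same-numbered pairs of arrays correlated over 0.1. With the replicate block the counts were 1 in DSas-4, 0 in DSas-6, 3 in SakOE, 0 between the wild types, 1 for SakOE against DSas-4, 3 for SakOE against DSas-6 and 2 for DSas-4 against DSas-6, the same counts as without it, though for SakOE against DSas-6 dib lost its call (adjusted p = 0.056) and phm gained one (-0.52, adjusted p = 0.0486). A block within DSas-4 and w67 alone, added after seeing the data, left the count in DSas-4 at 1 (nvd, adjusted p = 0.0136) and changed no other call there.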
